A study of Mus musculus with 14 samples.

Results

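The genes described here are 5 products of the Paneth cell other than its alpha-defensins: the lysozyme genes Lyz1 (ENSMUSG00000069515) and Lyz2 (ENSMUSG00000069516), the matrilysin gene Mmp7 (ENSMUSG00000018623), the intelectin gene Itln1 (ENSMUSG00000038209) and the angiogenin-family gene Ang4 (ENSMUSG00000060615). They were taken by symbol from the deposited tables, which list 36401 genes, and all 5 were found and passed the filter on low counts. Lyz1, Itln1 and Ang4 moved together across the libraries. They were high in CD166 cells and low in LGR5 cells, and 2 of the 3 ileum crypt libraries held more of them than any jejunum crypt library. Mmp7 showed no called difference between LGR5 and crypt cells. Its ratio to Lyz1 was higher in LGR5 than in crypt cells in all libraries together (exact permutation test, adjusted p = 0.04). Over the 3 populations Mmp7 was the only 1 of the 5 genes called higher in ileum than in jejunum. By region, however, its ratio to Lyz1 did not pass. Ileum crypt 3 and jejunum crypt 1 were alike in regional and other markers. Leaving out both widens the differences of Lyz1, Itln1, Ang4 and Mmp7, since these libraries held the lowest ileum and highest jejunum crypt levels. Without both, Lyz1, Itln1 and Ang4 were called higher in ileum as well, where 9.53% of all genes tested were called. The Mmp7 ratio difference between LGR5 and crypt cells was then 1.45, with too few libraries for its test to pass. Lyz2 was a minor transcript in every library.

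Paneth cells sit at the base of the small intestinal crypt, between the LGR5 stem cells, and release granules of antimicrobial proteins into the crypt lumen. Lysozyme cuts the peptidoglycan of bacterial cell walls. Mouse has a pair of lysozyme genes, of which Lyz1 is the Paneth cell form and Lyz2 the form of macrophages and other myeloid cells. Matrilysin, the product of Mmp7, is the protease that cuts mouse pro-alpha-defensins into their active form. Intelectin binds sugars on the surface of microbes, and Ang4 is a secreted ribonuclease that kills bacteria.

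The lysozyme genes are similar neighbours, and their start regions are shown because the pair was read at very unlike levels from like sequence. Each window holds the 250 bases before the start of transcription, from RefSeq on GRCm38.p6: chr10:117292869-117293118 on the minus strand for Lyz1 and chr10:117282273-117282522 on the minus strand for Lyz2. Capitals mark bases that differ or face a gap when both windows are aligned end to end.

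Lyz1: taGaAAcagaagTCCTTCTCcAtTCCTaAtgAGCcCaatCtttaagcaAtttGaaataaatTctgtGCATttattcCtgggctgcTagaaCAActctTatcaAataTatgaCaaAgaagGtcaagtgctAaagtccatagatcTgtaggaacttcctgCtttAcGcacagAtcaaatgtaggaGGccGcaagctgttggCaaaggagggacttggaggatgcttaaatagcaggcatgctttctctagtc

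Lyz2: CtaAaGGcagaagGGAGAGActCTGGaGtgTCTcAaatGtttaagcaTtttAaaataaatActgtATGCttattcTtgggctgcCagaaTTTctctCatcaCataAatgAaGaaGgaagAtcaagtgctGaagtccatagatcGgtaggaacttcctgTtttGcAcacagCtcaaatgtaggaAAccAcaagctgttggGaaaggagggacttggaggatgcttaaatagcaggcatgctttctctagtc

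Over the whole alignment of 252 positions 79.4% were identical. In the last 100 positions before the start 92.0% were identical, with 8 mismatches and no gap. The transcripts were also alike: of the 1214 windows of 50 bases in the Lyz1 transcript, 195 (16.1%) occurred unchanged in the Lyz2 transcript, and 536 (44.2%) did so when 1 mismatch was allowed. Reads of this length can thus be assigned to either gene, and the values of Lyz2, at no more than 2.59% of those of Lyz1, are uncertain for that reason. The other 3 genes shared little: 7.36% of Mmp7 windows occurred in AV064505, 1.01% of Itln1 windows in Gm9765 and 4.55% of Ang4 windows in Ang5, and none of these partners passed 0.552 CPM (the count scaled to the library's effective size) in any library.

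The start region of Mmp7, chr9:7691840-7692089 on the plus strand of GRCm38.p6, is shown because Mmp7 stood apart from Lyz1, Itln1 and Ang4 in LGR5 cells. Capitals mark the letters TATAAA and TGAGTCA, a form of the AP-1 motif.

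Mmp7: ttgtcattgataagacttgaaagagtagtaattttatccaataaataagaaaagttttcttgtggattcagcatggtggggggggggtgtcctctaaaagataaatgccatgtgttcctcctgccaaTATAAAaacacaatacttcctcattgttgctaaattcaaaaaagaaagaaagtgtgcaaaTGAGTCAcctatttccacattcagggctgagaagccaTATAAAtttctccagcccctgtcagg

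TATAAA was found at positions -123 and -26 and TGAGTCA at position -63, counted back from the start site, which follows position -1. On either strand, TATAAA occurred in 12.4% and TGAGTCA in 4.46% of 32851 promoter windows of this length. Among the other 4 genes, Ang4 held TGAGTCA on the minus strand at position -122 and none held TATAAA. Of the further motifs searched, CAGATG (in 14.4% of all windows) was found in Ang4 only. CAGCTG (in 4271 windows) was found in none of the 5, nor was the TCF/LEF motif CTTTGAA or CTTTGAT or CTTTGTA or CTTTGTT (14.8%).

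RNA was sequenced from small intestine of C57Bl6 mice, labelled male and aged 6 to 12 weeks, with tissue taken 5 to 8 cm from the cecum (ileum) or 5 to 8 cm from the pylorus (jejunum). Each region gave 3 crypt libraries, 2 libraries of cells selected by LGR5 and 2 of CD44+/CD24lo/CD166+ cells (CD166), 14 in all and without any treatment named. The labels name no allele or reporter behind the LGR5 selection, and they do not say whether libraries came from separate mice, so p-values measure the spread between libraries, which may be technical. They also call all 3 populations stem cells. Lyz1, a gene of Paneth cells, was among the 34 most abundant genes of every library. Markers of crypt base columnar stem cells were higher in both sorted populations than in crypt, as given below. What part of each library came from Paneth cells was not tested.

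Totals ran from 6295828 to 20380369 expected counts per library. The library labelled ileum crypt 3 had 25.8 CPM of Fabp6, an ileal bile acid carrier, and 233 CPM of Gata4, a proximal transcription factor. These were near the 25.1 and 229 CPM of jejunum crypt 1 and far from ileum crypt 1 and 2, with 1987 or more CPM of Fabp6 and 45.4 or fewer of Gata4. Ileum crypt 3 and jejunum crypt 1 were also alike in the sums over enterocyte genes (23682 and 24355 CPM) and lymphocyte genes (810 and 830 CPM). They were less alike in the alpha-defensin sum (12064 and 17770 CPM) and in Lyz2 (12.1 and 45.9 CPM). Jejunum crypt 1 itself differed from jejunum crypt 2 and 3, which had 1.26 and 1.14 CPM of Fabp6 and 88.2 and 324 CPM of Gata4. Results that rest on these crypt libraries are given with both and without both of them. The female transcript Xist was at 201 to 1675 CPM in 10 libraries, against the label of male mice, and at 2.78 to 3.11 CPM in the other 4, which were crypt libraries of both regions. All sorted libraries were among the 10, so comparisons of sorted with crypt cells also set libraries of unlike Xist level against each other. The part of this in those differences was not tested.

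Lyz1 was among the most abundant transcripts. The 5 genes together took 0.295% (jejunum LGR5 1) to 2.86% (jejunum CD166 2) of all counts. Lyz1 was the most abundant gene of all in ileum crypt 1 and 2, ileum CD166 1 and jejunum CD166 1. Per kilobase of transcript, so that genes can be set beside each other, Lyz1 ranged over 1491 to 16434 CPM, Itln1 over 558 to 6651, Ang4 over 131 to 1800, Mmp7 over 39.2 to 1922 and Lyz2 over 1.49 to 74.6. In bulk libraries a lower level can come from fewer Paneth cells or from less RNA per cell, and these cannot be told apart.

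**Figure D1:**
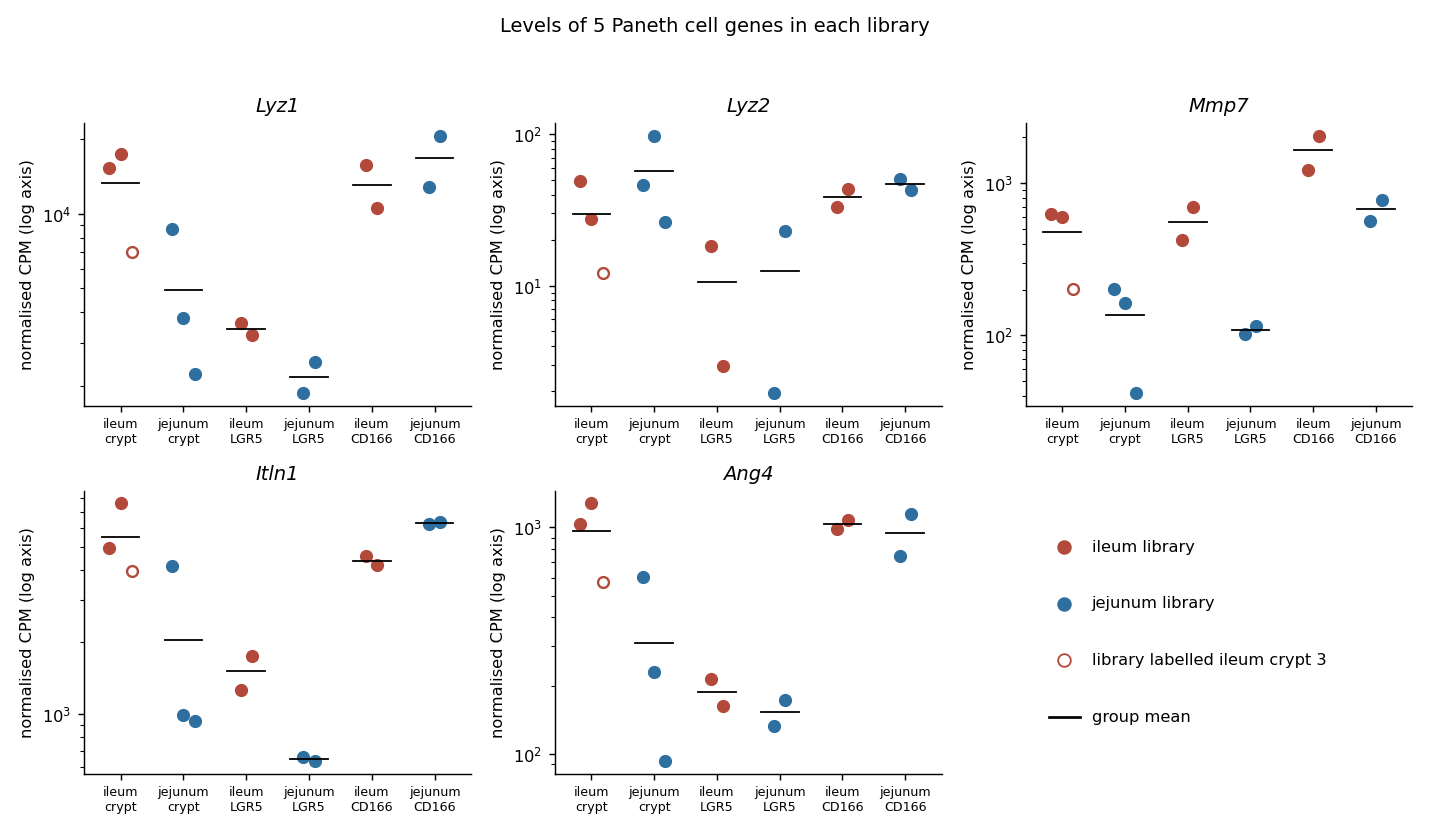
Normalised CPM (log axis) of the 5 genes in each of the 14 libraries, by region and population, with the group mean as a line and the library labelled ileum crypt 3 as an open circle. Lyz1, Itln1 and Ang4 have their lowest group means in the LGR5 libraries, while Mmp7 in the ileum LGR5 libraries (424 and 693 CPM) stays near its ileum crypt level.

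Lyz1 stood at 15387, 17423 and 7018 CPM in ileum crypt 1 to 3 and at 8712, 3792 and 2253 CPM in jejunum crypt 1 to 3. In LGR5 cells it was at 3620 and 3242 CPM in ileum and at 1883 and 2506 CPM in jejunum. In CD166 cells it was at 15734 and 10551 CPM in ileum and at 12801 and 20757 CPM in jejunum. All 4 CD166 libraries were thus above all 4 LGR5 libraries, and ileum crypt 3 lay inside the range of the jejunum crypt libraries. By group mean the order ran from jejunum CD166 (16779 ± 5626 CPM, SD, n = 2) through ileum crypt (13276 ± 5515, n = 3), ileum CD166 (13143 ± 3665, n = 2), jejunum crypt (4919 ± 3374, n = 3) and ileum LGR5 (3431 ± 267, n = 2) to jejunum LGR5 (2194 ± 440, n = 2). Libraries of neighbouring groups overlapped except between ileum CD166 and jejunum crypt and between both LGR5 groups.

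Itln1 was at 4937, 7588 and 3968 CPM in ileum crypt 1 to 3 and at 4166, 993 and 937 CPM in jejunum crypt 1 to 3. In LGR5 cells it was at 1264 and 1750 CPM in ileum and at 660 and 636 CPM in jejunum. In CD166 cells it was at 4554 and 4177 CPM in ileum and at 6225 and 6364 CPM in jejunum. The regions did not overlap in either sorted population, but their order was opposite: ileum was higher in LGR5 cells and jejunum in CD166 cells. How many of all genes tested do the same was not counted. By group mean Itln1 had the same order as Lyz1, with its highest mean in jejunum CD166 (6295 ± 98.6 CPM, SD, n = 2) and its lowest in jejunum LGR5 (648 CPM, n = 2), and neighbours overlapped except in the places named for Lyz1.

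Ang4 was at 1031, 1276 and 572 CPM in ileum crypt 1 to 3 and at 601, 230.3 and 93.0 CPM in jejunum crypt 1 to 3. In LGR5 cells it was at 214 and 162 CPM in ileum and at 133 and 173 CPM in jejunum. In CD166 cells it was at 981 and 1079 CPM in ileum and at 747 and 1142 CPM in jejunum. Ang4 overlapped between the regions in all 3 populations, and only its lowest crypt library, jejunum crypt 3, fell below all LGR5 libraries. The group means ran from 1030.0 ± 69.8 CPM in ileum CD166 (SD, n = 2) to 153 ± 28.5 in jejunum LGR5 (n = 2), and of neighbours in that order only jejunum CD166 and jejunum crypt did not overlap.

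Mmp7 was at 628, 596 and 202 CPM in ileum crypt 1 to 3 and at 203, 163 and 41.9 CPM in jejunum crypt 1 to 3. In LGR5 cells it was at 424 and 693 CPM in ileum and at 102 and 115 CPM in jejunum. In CD166 cells it was at 1221 and 2053 CPM in ileum and at 563 and 780 CPM in jejunum. Within each sorted population both ileum libraries were above both jejunum libraries, and in crypt the same held once the library labelled ileum crypt 3 was left out. The group means ran from 1637 ± 588 CPM in ileum CD166 (SD, n = 2) through jejunum CD166 (671 ± 153, n = 2), ileum LGR5 (559 ± 190, n = 2), ileum crypt (475 ± 237, n = 3) and jejunum crypt (136 ± 84.0, n = 3) to jejunum LGR5 (108 ± 9.27, n = 2). Of neighbours in that order only the CD166 groups did not overlap.

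Lyz2 was at 49.0, 27.6 and 12.1 CPM in ileum crypt 1 to 3 and at 45.9, 98.1 and 26.3 CPM in jejunum crypt 1 to 3. In LGR5 cells it was at 18.2 and 2.96 CPM in ileum and at 1.96 and 23.1 CPM in jejunum, where the lower library of each pair held 27.5 and 16.4 expected counts. In CD166 cells it was at 33.1 and 43.7 CPM in ileum and at 50.4 and 42.8 CPM in jejunum. Ordered by group mean, every neighbouring pair of groups overlapped, but the 4 CD166 libraries were all above the 4 LGR5 libraries. Its highest library, jejunum crypt 2, also had the highest sum over 17 myeloid marker genes, 442 CPM, against 36.7 to 205 CPM in the other libraries. The next highest myeloid sum was in ileum crypt 1. Jejunum crypt 2 likewise had the highest sums over 12 lymphocyte genes (10794 CPM) and 12 enterocyte genes (53687 CPM), and ileum crypt 1 the next highest lymphocyte sum (3100 CPM). Jejunum CD166 1, second highest for Lyz2, had a myeloid sum of 50.9 CPM. Over the groups the myeloid sum ranged over 65.6 to 205 CPM in ileum crypt, 44.1 to 442 in jejunum crypt, 65.5 to 75.2 in ileum LGR5, 36.7 to 44.6 in jejunum LGR5, 68.7 to 85.1 in ileum CD166 and 42.8 to 50.9 in jejunum CD166. Of the 13 myeloid genes tested, 10 fell from crypt to LGR5 cells (18.5% of all genes tested did) and 4 from crypt to CD166 cells (16.5% did), and Cd14 rose in both. Without ileum crypt 3 and jejunum crypt 1 the falls were 9 and 3. Of the defining macrophage genes, Emr1 was at 0 in both jejunum LGR5 libraries, and Csf1r had group means of 0.234 to 1.64 CPM in sorted cells against 8.09 in ileum crypt and 11.6 in jejunum crypt. Cd68, another macrophage gene, was at 1.90 to 4.96 CPM in the sorted groups and at 2.61 and 3.41 CPM in ileum and jejunum crypt. The part of these cell types in the level of Lyz2 was not tested.

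Differences between groups were tested with edgeR's quasi-likelihood test over 14750 genes and Benjamini-Hochberg adjustment, and an adjusted p under 0.05 counted as a call. Comparisons between populations were averaged over the regions and share the crypt or the LGR5 libraries, so they are not independent of each other. From crypt to LGR5 cells, Lyz1, Itln1 and Ang4 fell, 3 of the 5 genes, where 31.5% of all genes tested were called. Lyz1 fell by 1.56 on the log2 scale (SE 0.41, 2.95-fold, edgeR adjusted p = 0.015), Itln1 fell by 1.76 (SE 0.43, 3.38-fold, adjusted p = 0.0106) and Ang4 fell by 1.68 (SE 0.45, 3.21-fold, adjusted p = 0.0162). The log2 difference of Lyz2 was -1.81 (SE 0.69, adjusted p = 0.0671) and that of Mmp7 was -0.05 (SE 0.43, adjusted p = 0.948). The median of the 5 genes was -1.68, against -0.01 over all genes tested. The calls were lost without ileum LGR5 1, ileum LGR5 2 or jejunum LGR5 1 for Lyz1, without ileum LGR5 1 or jejunum LGR5 2 for Itln1, and without any 1 of the 4 LGR5 libraries for Ang4. The log2 differences in fits that left out 1 library stayed between -1.94 and -1.21 for these 3 genes. Lyz2 was called without ileum LGR5 1 (-2.75) or without jejunum LGR5 2 (-3.21). Without both ileum crypt 3 and jejunum crypt 1, Lyz1, Itln1 and Ang4 were still called, where 28.5% of all genes tested were.

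From LGR5 to CD166 cells the same 3 genes rose, where 1.61% of all genes tested were called and every one of those 238 genes was higher in CD166 cells. Ang4 rose by 2.54 on the log2 scale (SE 0.49, 5.82-fold, edgeR adjusted p = 0.0218), Lyz1 by 2.44 (SE 0.44, 5.41-fold, adjusted p = 0.017) and Itln1 by 2.41 (SE 0.46, 5.30-fold, adjusted p = 0.0218). The difference was 2.09 for Mmp7 (SE 0.49, adjusted p = 0.0668) and 1.86 for Lyz2 (SE 0.73, adjusted p = 0.43). Every CD166 library was above every LGR5 library for Lyz1, Lyz2, Itln1 and Ang4. Mmp7 was the exception, since ileum LGR5 2 (693 CPM) lay above jejunum CD166 1 (563 CPM). The share of all genes tested that separate in this way was not counted, and Lyz2 was not called. The calls of Lyz1, Itln1 and Ang4 held in 8, 6 and 7 of the 14 fits that left out 1 library. Each of the 4 LGR5 libraries was needed for all 3 calls, ileum CD166 1 and jejunum CD166 2 also for Lyz1, all 4 CD166 libraries for Itln1, and ileum CD166 2 and both jejunum CD166 libraries for Ang4. Over these fits the log2 differences stayed between 2.24 and 2.66, and Mmp7 was called without ileum crypt 3 or without jejunum crypt 3, at 2.09 each time. Without both ileum crypt 3 and jejunum crypt 1 Mmp7 was called too (2.09, adjusted p = 0.0318), where 1.78% of all genes tested were.

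From crypt to CD166 cells Mmp7 rose by 2.04 on the log2 scale (SE 0.42, 4.12-fold, edgeR adjusted p = 0.00476), 1 of the 5 genes, where 30.1% of all genes tested were called. It was called in all 14 fits that left out 1 library, with differences of 1.83 to 2.25. The differences of Lyz1 (0.88, SE 0.38, adjusted p = 0.102), Ang4 (0.86, SE 0.41, adjusted p = 0.139) and Itln1 (0.65, SE 0.40, adjusted p = 0.234) did not pass, and Lyz2 was at 0.05 (SE 0.64, adjusted p = 0.96). Without jejunum crypt 1 alone, Lyz1, Itln1 and Ang4 were called as well, with differences of 1.23, 1.19 and 1.33. Without both ileum crypt 3 and jejunum crypt 1 they were at 1.08, 1.09 and 1.19 and were called, where 27.2% of all genes tested were. Markers of absorptive cells differed between these populations: all 12 enterocyte genes tested fell from crypt to either sorted population, and their summed level ran from 7814 to 53687 CPM in crypt libraries and from 1348 to 3175 CPM in sorted libraries. The 14 markers of crypt base columnar stem cells were higher in both sorted populations than in crypt. Without both crypt libraries all 12 enterocyte genes fell again, and 14 stem cell genes rose in LGR5 and 12 in CD166 cells. The part of these cells in the differences was not tested.

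**Figure D2:**
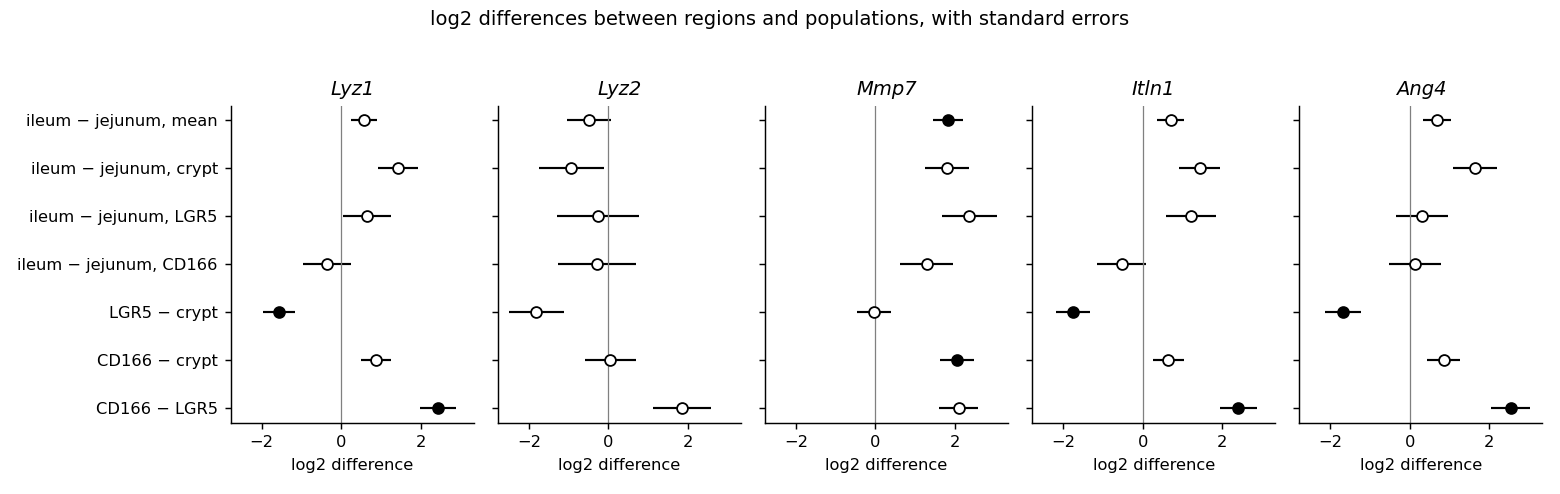
Log2 differences (x axis) with standard errors for 7 comparisons (rows) and 5 genes (panels), from the fit to all 14 libraries, with filled circles for an adjusted p under 0.05. Lyz1, Itln1 and Ang4 share their filled circles in LGR5 − crypt and CD166 − LGR5, and Mmp7 is filled in the mean ileum − jejunum row (1.82) and in CD166 − crypt (2.04).

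Between regions, as the mean over the 3 populations, Mmp7 rose by 1.82 on the log2 scale from jejunum to ileum (SE 0.37, 3.53-fold, edgeR adjusted p = 0.0196). It was the only 1 of the 5 genes called, where 5.01% of all genes tested were. Itln1 was at 0.71 (SE 0.34, adjusted p = 0.315), Ang4 at 0.69 (SE 0.36, adjusted p = 0.367), Lyz1 at 0.57 (SE 0.33, adjusted p = 0.422) and Lyz2 at -0.49 (SE 0.55, adjusted p = 0.771). The median of the 5 genes was 0.69, against -0.01 over all genes tested. Mmp7 was called in 8 of the 14 fits that left out 1 library, with differences of 1.67 to 1.96. Its call was lost without ileum LGR5 2, either jejunum LGR5 library, ileum CD166 2 or either jejunum CD166 library.

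Within single populations edgeR called none of the 5 genes between regions in the fit of all libraries. DESeq2 called Mmp7 in crypt (1.78) and LGR5 cells (2.38), the replicate block called it in LGR5 cells, and fits of the compared groups alone called Mmp7 (2.37) and Itln1 (1.22) in LGR5 and Mmp7 (1.29) in CD166 cells. In crypt no gene of all 14750 was (0% called by edgeR, although 1899 had an unadjusted p under 0.05; DESeq2 gave 323 calls and limma-voom 0), in LGR5 cells 0.698% were and in CD166 cells 0.0203%. Mmp7 had ileum minus jejunum differences of 1.80 in crypt (SE 0.56), 2.36 in LGR5 (SE 0.69) and 1.29 in CD166 cells (SE 0.67), all in 1 direction. Lyz1 was at 1.43 in crypt (SE 0.50), 0.64 in LGR5 (SE 0.60) and -0.35 in CD166 cells (SE 0.60). Itln1 was at 1.44, 1.22 and -0.53 and Ang4 at 1.64, 0.30 and 0.12 in the same order. Whether the regional difference varied with the population was tested jointly, and none of the 5 genes passed, with the smallest unadjusted p at 0.0781 for Itln1 (edgeR adjusted p = 0.904), where 0.0136% of all genes tested were called.

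The crypt values turned on the library labelled ileum crypt 3 and its near match, jejunum crypt 1. Within its group, ileum crypt 3 had the lowest and jejunum crypt 1 the highest level of Lyz1, Itln1, Ang4 and Mmp7. Leaving them out thus widened the differences of these genes. Without ileum crypt 3 alone, Mmp7 was called in crypt, at 2.17 (SE 0.53, edgeR adjusted p = 0.0486). Without both, 4 of the 5 genes were called in crypt, where 5.87% of all genes tested were: Ang4 rose from jejunum to ileum by 2.84 (SE 0.43, adjusted p = 0.0052), Itln1 by 2.70 (SE 0.31, adjusted p = 0.00146), Mmp7 by 2.58 (SE 0.57, adjusted p = 0.0288) and Lyz1 by 2.44 (SE 0.41, adjusted p = 0.00808). Averaged over the populations, the same 4 genes were called without both libraries, where 9.53% of all genes tested were, with differences of 2.08 for Mmp7, 1.13 for Itln1, 1.09 for Ang4 and 0.91 for Lyz1. Lyz2 was not called in either case, at -0.68 in crypt and -0.41 over the populations. None of the 5 genes was called in LGR5 cells (2.71% of all genes tested) or CD166 cells (0.965%). Without jejunum crypt 1 alone, Itln1 and Ang4 were called in crypt, at 2.51 and 2.57, and over the populations, at 1.07 and 1.00. The enterocyte sum also differed between the crypt groups, at 11420, 7814 and 23682 CPM in ileum crypt 1 to 3 and 24355, 53687 and 34598 CPM in jejunum crypt 1 to 3, so that the 2 libraries with the lowest enterocyte sums had the highest Lyz1. The part of this in the crypt difference was not tested.

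**Figure D3:**
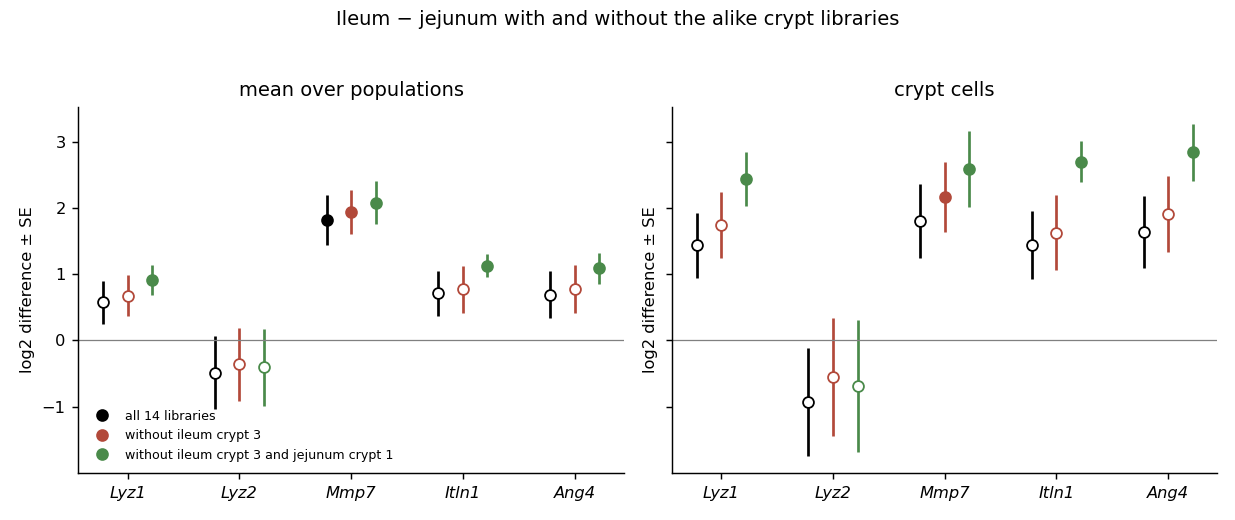
Ileum − jejunum log2 differences with standard errors for each gene, over the populations (left) and in crypt (right), from all 14 libraries, without ileum crypt 3, and without both alike crypt libraries; filled circles mark an adjusted p under 0.05. In crypt, Lyz1 goes from 1.43 to 2.44 and Itln1 from 1.44 to 2.70, while Lyz2 stays below 0.

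Setting each gene against Lyz1 within the same library gives its level relative to the main lysozyme. Itln1 was at 25.4% to 56.5% of the CPM of Lyz1, with overlapping regions in each population. Ang4 was at 4.13% to 10.2%. In LGR5 cells its share was lower in ileum (5.90% and 5.00%) than in jejunum (7.06% and 6.91%), and in CD166 cells it was higher in ileum (6.23% and 10.2%) than in jejunum (5.84% and 5.50%), without overlap in either. Mmp7 was at 11.7% and 21.4% of Lyz1 in ileum LGR5 and at 7.76% and 19.5% in ileum CD166, and at 1.86% to 5.41% in the other 10 libraries. The ileum sorted libraries thus stood above all others, the ileum crypt libraries (2.88% to 4.08%) included. An exact two-sided permutation test of the log2 ratio, with labels exchanged within the other factor and adjustment over 4 ratios, gave the following. The ratio of Mmp7 to Lyz1 was higher in LGR5 than in crypt cells by 1.56 (exact p = 0.01, the smallest 100 arrangements can give, adjusted p = 0.04), with 2.21 in ileum and 0.91 in jejunum. It was higher by 1.22 in CD166 than in crypt cells (exact p = 0.02, adjusted p = 0.08) and by 1.21 in ileum than in jejunum (exact p = 0.0139, adjusted p = 0.0556), and neither passed after adjustment. By region the difference was 1.60 in CD166, 1.66 in LGR5 and 0.36 in crypt libraries.

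The ratios of Itln1 and Ang4 to Lyz1 differed by -0.15 to 0.18 on the log2 scale in all 4 comparisons, with exact adjusted p of 0.436 or more. Without both crypt libraries these differences were 0.01 to 0.20. For CD166 against LGR5 cells 36 arrangements cannot give an exact p below 0.0556, and no ratio passed there. Lyz2 was at 0.0913% to 2.59% of Lyz1, with its 2 highest ratios in jejunum crypt 2 and 3, and none of its 4 comparisons passed (exact adjusted p of 0.311 or more). Leaving out single libraries moved the difference of the Mmp7 ratio between LGR5 and crypt cells over 1.34 to 1.77. With 1 crypt or LGR5 library fewer, the adjusted p cannot reach 0.05. Without both ileum crypt 3 and jejunum crypt 1 the difference was 1.45 for LGR5 and 1.11 for CD166 against crypt cells, where 36 arrangements cannot give an exact p below 0.0556, and 1.22 for ileum against jejunum (exact p = 0.0278, adjusted p = 0.111).

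**Figure D4:**
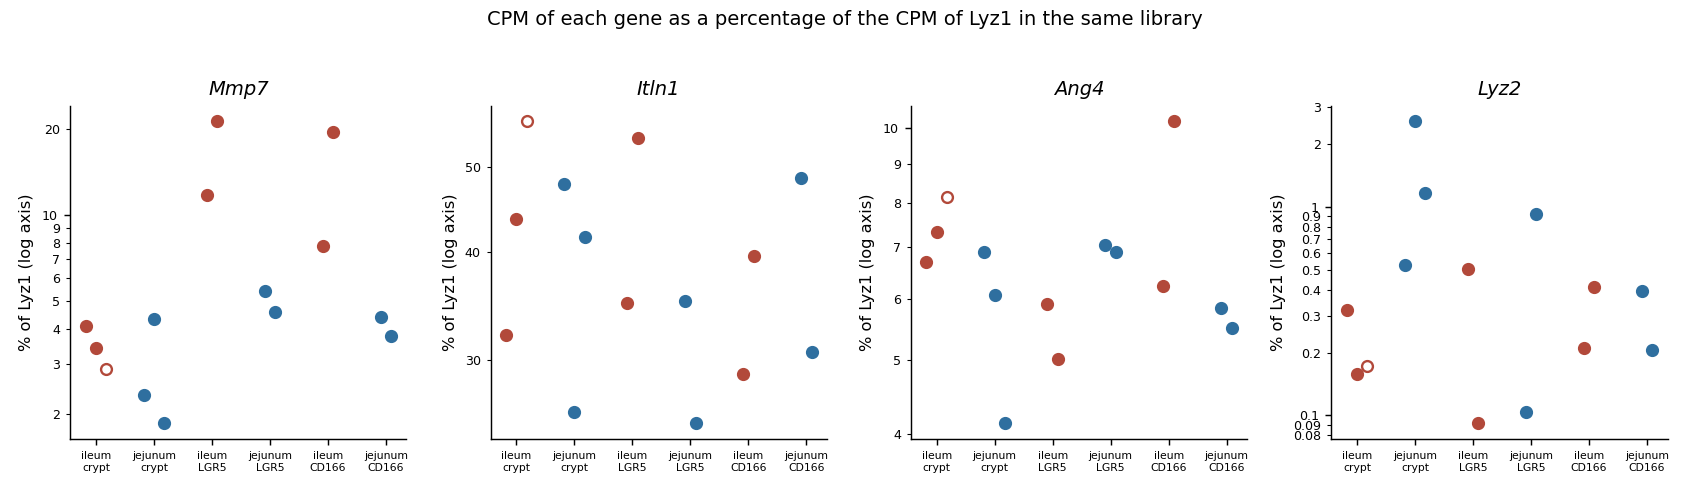
CPM of Mmp7, Itln1, Ang4 and Lyz2 as a percentage of Lyz1 in the same library (log axes with unlike ranges), by region and population, with 1 circle per library and an open circle for the library labelled ileum crypt 3. Mmp7 reaches 7.76% to 21.4% in the 4 ileum sorted libraries and stays at or under 5.41% elsewhere, while Itln1 ranges over 25.4% to 56.5% and Ang4 over 4.13% to 10.2%.

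Across the 14 libraries the log2 CPM of Lyz1 correlated with that of Ang4 at r = 0.97, of Itln1 at 0.96, of Mmp7 at 0.73 and of Lyz2 at 0.55 (Pearson, as a description, since libraries of a group share their population). Among the 9896 genes whose log2 CPM averaged 3 or more, those most like Lyz1, the 5 genes themselves left out here and for each gene that follows, were the alpha-defensin genes Defa3 (r = 0.97) and Defa24 (0.95) and Gm14850 (0.94). Those most like Ang4 were Gm14850 (0.97), Defa3 (0.96) and Gm11062 (0.95). Itln1 was most like Pnliprp2 (0.95) and Clps (0.94), a lipase and a cofactor of lipase, and the phospholipase gene Pla2g2f (0.92). Mmp7 was most like Spink4 (0.94), a protease inhibitor gene listed here among the goblet cell markers, Ing1 (0.93) and Fkbp11 (0.92). No alpha-defensin was among its first 3. Lyz2 was most like mmu-mir-689-2 (0.79), Unc45a (0.77) and Cry2 (0.76).

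The alpha-defensins, which matrilysin processes, had 24 tested genes of 39 in the files, with values that are uncertain between near-identical copies. From crypt to LGR5 cells 12 of them fell and none rose (median -1.67), where 18.5% of all genes tested fell and 13% rose. From LGR5 to CD166 cells 10 rose (median 2.41), where 1.61% of all genes rose and no gene tested fell. From crypt to CD166 cells 3 rose and none fell (median 0.77), where 13.6% of all genes rose and 16.5% fell. Between regions 5 of the 24 rose in ileum and none fell, where 2.99% of all genes tested rose and 2.02% fell. The 5 called genes rose by 2.62 to 6.22, more than the 1.82 of Mmp7. The median of the 24 was 0.52, and 20 of them were above 0. Without ileum crypt 3 and jejunum crypt 1, 22 alpha-defensins were tested and 9 rose in ileum (4.95% of all genes rose and 4.58% fell), 16 fell from crypt to LGR5 cells (17.7% of all genes fell and 10.9% rose), 17 rose from crypt to CD166 cells (11.9% rose and 15.3% fell) and 19 rose from LGR5 to CD166 cells (1.78% were called). None moved the other way in these 4 comparisons.

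Of 19 other Paneth cell genes tested, most of them secreted products, 6 rose from jejunum to ileum and none fell, with a median of 1.18, where 2.99% of all genes tested rose and 2.02% fell. These were Reg3g, a lectin that binds bacteria (1.94, SE 0.43), the chemokine gene Ccl6 (1.57, SE 0.31) and the phospholipase gene Pla2g2a (1.56, SE 0.40). The others were the membrane receptor gene Fgfrl1 (1.06, SE 0.23), the niche signal gene Wnt3 (1.88, SE 0.47) and the coatomer gene Copz2 (1.59, SE 0.33). The receptor and the coatomer subunit are not secreted. Without ileum crypt 3 and jejunum crypt 1, 10 of the 19 rose and 1 fell. From crypt to LGR5 cells 6 fell and 2 rose, where 18.5% of all genes fell and 13% rose, and Reg3b (-2.45), Reg3g (-2.26), Guca2b (-2.87) and Clps (-1.63) were the most abundant of those that fell. From crypt to CD166 cells 5 rose and 2 fell, with Ccl6 at 1.09 and Guca2b at -1.86, where 13.6% of all genes rose and 16.5% fell. Reg3b (-1.62) and Reg3g (-1.16) were below 0 there too, and Clps was at 0.49, none of them called. All 12 enterocyte genes fell in both comparisons, and the part of enterocytes in the falls of Guca2b, Reg3b and Reg3g was not tested. From LGR5 to CD166 cells Clps alone rose (2.12, SE 0.29), where 1.61% of all genes did. Without both crypt libraries these counts were 6 lower and 3 higher, 9 higher and 2 lower, and 4 higher.

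Of 28 genes of Paneth cell fate, secretion and sensing, 3 rose in ileum (2.99% of all genes did) and none fell: the secretory fate gene Atoh1 (1.87, SE 0.34), Spdef, a transcription factor of goblet and Paneth cell maturation (1.49, SE 0.35), and Ern2, a stress sensor of mucus-secreting cells (1.48, SE 0.31). From crypt to LGR5 cells 6 rose and 3 fell, where 13% of all genes rose and 18.5% fell, Cd24a (1.00) and Sox9 (1.74), a fate gene that stem cells also express, among those that rose. From crypt to CD166 cells 4 of the 28 rose and 1 fell, a share of rises close to the 13.6% over all genes, and from LGR5 to CD166 cells none passed. Without both crypt libraries 7 rose in ileum and none fell, and the other counts were 6 and 3, 4 and 2, and none. Goblet cell markers also differed by region: 3 of 14 tested rose in ileum and none fell (Agr2 1.74, Clca3 2.34, Creb3l1 1.60), with a median of 1.14, where 2.99% of all genes rose and 2.02% fell. Without both crypt libraries 6 rose and none fell. Their summed level was 9055 and 26028 CPM in ileum LGR5, 3755 and 2297 in jejunum LGR5, 7749 and 15226 in ileum CD166, 10603 and 7289 in jejunum CD166, 9569 to 15164 in ileum crypt and 7302 to 9562 in jejunum crypt. The highest, ileum LGR5 2, was also the library with the highest ratio of Mmp7 to Lyz1. The part of goblet cells in the Mmp7 difference was not tested.

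Of 41 listed relatives of the 5 genes, 38 were in the files and 17 passed the filter on low counts. The lysozyme-like genes Lyzl1, Lyzl6, Lyg1 and Lyg2 and the angiogenin gene Ang2 had no counts in any library, and Ang5 and Ang6 reached no more than 0.151 CPM. The angiogenin gene Ang rose from jejunum to ileum by 0.76 on the log2 scale (SE 0.17, edgeR adjusted p = 0.0273), and was the only relative called between regions. It was called without both crypt libraries too, again alone. From crypt to LGR5 cells 4 relatives rose and 4 fell, where 13% of all genes rose and 18.5% fell. The membrane-bound matrix metalloprotease genes Mmp14 (1.52, SE 0.27) and Mmp15 (0.96, SE 0.21) were among those that rose, and Mmp23 (-2.50, SE 0.61) among those that fell. From crypt to CD166 cells 6 rose, with the ribonuclease genes Rnase4 (1.17, SE 0.31) and Rnase1 (1.54, SE 0.35) among them, and 3 fell, where 13.6% of all genes rose and 16.5% fell. Without both crypt libraries these counts were 4 and 3 for LGR5 cells and 6 and 2 for CD166 cells. From LGR5 to CD166 cells no relative passed in either fit.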

How the data were processed

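RNA-seq libraries (TruSeq kit, single-end 50-base reads, per the labels) were analysed from 14 samples. Per the submitters' processing notes the build was mm9 and DESeq was used; no aligner, counter or annotation is given in the sources used here. For each sample the authors deposited a table of expected counts, fractional and unscaled although named for RPKM (50.6% of values above 0 were whole within 0.001), and a table of log2 values centred on the median over libraries, which was only checked against the counts.

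Expected counts were rounded, filtered with filterByExpr (14750 genes kept) and scaled by TMM in edgeR 4.0.16 (R 4.3.3). The robust quasi-likelihood model gave each of the 6 groups its own mean. The standard error is the log2 difference divided by the square root of F. Ratios to Lyz1 used CPM + 0.5. Alternatives were DESeq2 1.42.0, limma-voom (limma 3.58.1), other filters and size factors, a replicate block, the compared groups alone and left-out libraries. A simulation with known changes was used to test the code of the fits. It gave every gene and library the same spread, so it does not show how the fits behave at the spread of these libraries.

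The 5 genes, the lists and the tests were chosen with earlier results of these data known. Of each list, at most 4 called genes with the highest mean level were named, plus defining members near 0; Wnt3 and Copz2 complete a count and were named after their values were seen. Coordinates come from RefSeq on GRCm38.p6 and transcripts from GENCODE M21, not from mm9.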

Additional observations from a re-analysis of the deposited data

Results flagged for a closer look

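Itln1 had ileum minus jejunum differences of opposite sign in the sorted populations, without overlap of libraries in either: 1.22 on the log2 scale in LGR5 cells (1264 and 1750 against 660 and 636 CPM) and -0.53 in CD166 cells (4554 and 4177 against 6225 and 6364 CPM). Itln1 was flagged because of this pattern, so the lack of overlap is a description only. Groups of 2 libraries can separate fully by chance, and the share of all genes tested that separate in this way was not counted. The contrast of the sorted populations alone was not tested. The joint test over the 3 populations gave an edgeR adjusted p of 0.904, and 0.0696 when ileum crypt 3 and jejunum crypt 1 were left out. With 2 libraries a side, neither difference was called on its own.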

How the results depend on the processing

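Depth limited Lyz2 most, with 16.4 expected counts in its lowest library. Replicate numbers showed no clear pairing of the samples. Deviations of same-numbered libraries correlated at -0.36, -0.47 and 0.43 in crypt, -0.10 in LGR5 and -0.20 in CD166 cells. Differently numbered crypt libraries correlated at -0.73 to 0.65. With 2 libraries in a group the deviations mirror each other, so each sorted population gives a single value, which cannot settle whether samples were paired. A replicate block gave 3 called genes between regions in crypt, 254 in LGR5 (Mmp7 among them, 1 of the 5 genes), 31 in CD166 and 0 for the interaction, turned Lyz2 in CD166 against crypt cells to -0.31, and called Lyz2 in LGR5 against crypt cells (adjusted p = 0.0453) and Mmp7 in CD166 against LGR5 cells (adjusted p = 0.00217); crossed CD166 numbers, chosen after seeing the data, also gave 31. DESeq2 called 1410 genes between regions, 323 in crypt and 763 in LGR5 (1 of the 5 genes, Mmp7, in each), 186 in CD166, 421 for CD166 against LGR5 cells and 71 for the interaction. Limma-voom called 30 in LGR5, 48 in CD166 and 0 for the interaction, and put Mmp7 in LGR5 against crypt cells at 0.12. No filter gave 13 in CD166. Fits of the compared groups alone called 1574 in LGR5 (2 of the 5 genes), 571 in CD166 (1 of 5) and 575 for CD166 against LGR5 cells. Without both ileum crypt 3 and jejunum crypt 1, 1402 genes were called between regions, 863 in crypt, 399 in LGR5 and 142 in CD166, with 4 of the 5 genes called between regions, in crypt and for CD166 against crypt cells, and Lyz2 in CD166 against crypt cells at -0.20. A pseudocount of 1 turned the Lyz2 ratio in CD166 against LGR5 cells to -0.0831. Leaving out both crypt libraries, chosen for the ratios and lists after seeing the data, turned the ratio of Itln1 to Lyz1 to 0.0359 for LGR5 and 0.0419 for CD166 against crypt cells and that of Ang4 to 0.0577 for LGR5 against crypt cells. The cause of these changes was not tested. Fits that left out 1 library, where a lone library was assumed to vary like the other groups, called 138 to 1269 genes between regions (0 to 3 of the 5), 0 to 614 in crypt (0 to 2), 2 to 376 in LGR5 (0 in all), 0 to 112 in CD166 (0 in all), 2421 to 5032 for LGR5 against crypt (1 to 3), 2769 to 5112 for CD166 against crypt (1 to 4), 85 to 295 for CD166 against LGR5 (0 to 4) and 0 to 15 for the interaction. Signs turned in such fits for Ang4 (-0.15 to 0.44) and Lyz1 (-0.68 to 0.0141) between regions in CD166, Lyz2 between regions (-1.11 to 0.42), in LGR5 (-2.12 to 2.46) and for CD166 against crypt (-0.14 to 0.34), Mmp7 for LGR5 against crypt (-0.28 to 0.16), the ratio of Ang4 to Lyz1 (-0.0547 to 0.30 for CD166 against LGR5, -0.11 to 0.25 for CD166 and -0.16 to 0.0211 for LGR5 against crypt), that of Itln1 (-0.16 to 0.17, -0.31 to 0.0196 and -0.31 to 0.00420) and that of Lyz2 for CD166 against LGR5 (-0.68 to 0.75).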

Other observations

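Within groups, after each group mean was taken off, Lyz1 still varied with Ang4 (r = 0.93 over 14 libraries) and less with Itln1 (0.80), Mmp7 (0.77) and Lyz2 (0.37). Apart from the 5 genes themselves, those most like Lyz1 on this measure were Bambi (0.96), Gm14850 (0.95) and Clca2 (0.95). Those most like Mmp7 were 1700066B19Rik (0.94), Fam69a (0.91) and Vldlr (0.91). Itln1 remained most like Clps (0.95) and Pnliprp2 (0.93), and Pla2g2a (0.90) took the third place. Ang4 was most like Gm14850 (0.96), Defa3 (0.96) and Tmed6 (0.96), and Lyz2 like Unc45a (0.92), Bmpr2 (0.88) and Pou2f1 (0.86).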
